A study of Mus musculus with 81 samples.

Results

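The collagen genes were followed across hippocampal area CA1 of mice in which either macroH2A (mH2A) histone was targeted by short hairpin RNA, and across mH2A chromatin immunoprecipitation in mice with no virus. Members were taken by name, as every symbol made of Col, a number, the letter a and a second number. The family itself was chosen with earlier results of these data known. Each of the 3 count tables held the same 44 members, among 55536, 20801 and 24500 rows. All mice were adult male C57BL/6J, and every RNA library came from a separate mouse. In the depletion experiment an AAV-DJ vector carrying an shRNA against H2afy, which encodes mH2A1, against H2afy2, which encodes mH2A2, or a scrambled sequence (shScr) was infused into dorsal CA1, and RNA was taken 2 weeks later from 3 mice per virus. In the training experiment, shScr or shH2afy mice were left untrained in the home cage or were fear conditioned and sampled 1 h later (3 mice in each of the 4 groups). A set without virus held 3 untrained mice and 2 mice taken 1 h after fear conditioning. The vector carries the shRNA under a U6 promoter and GFP under a CMV promoter, the cell types that expressed it were not measured here, and the tissue was sequenced in bulk.

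Collagens are trimers of alpha chains wound into a triple helix. Fibrillar chains (types I, II, III, V, XI, XXIV and XXVII) build the tensile fibres of connective tissue, whereas type IV chains build the sheet-like network of basement membranes, which in brain lines blood vessels and the pial surface. Fibril-associated collagens (types IX, XII, XIV, XVI, XIX, XX and XXII) decorate fibres, type VI forms beaded filaments, types XIII, XVII, XXIII and XXV span the cell membrane, and types XV and XVIII (multiplexins) sit at basement membrane borders. Healthy brain parenchyma holds little fibrillar collagen, and the common form of type IV around vessels is built from Col4a1 and Col4a2 chains.

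The type IV genes lie in head-to-head pairs, so that each pair shares one upstream region. The windows below run from 250 bases before to 50 after the start of the transcript (RefSeq, GRCm38.p6, read 5′ to 3′ on the strand of the gene), and are shown because the pairs responded differently and because Col16a1 and Col20a1 were the fibril-associated genes with the largest fold changes in the depletion experiment. Capitals mark matches on either strand to the CCAAT box (spelled as named), to the GC box bound by Sp factors (letters GGGCGG), to the TATA box (letters TATAAA), to the AP-1 motif of Fos and Jun factors (letters TGANTCA) and to the core of the interferon-stimulated response element.
Col4a1 (chr8:11312777-11313076, minus strand): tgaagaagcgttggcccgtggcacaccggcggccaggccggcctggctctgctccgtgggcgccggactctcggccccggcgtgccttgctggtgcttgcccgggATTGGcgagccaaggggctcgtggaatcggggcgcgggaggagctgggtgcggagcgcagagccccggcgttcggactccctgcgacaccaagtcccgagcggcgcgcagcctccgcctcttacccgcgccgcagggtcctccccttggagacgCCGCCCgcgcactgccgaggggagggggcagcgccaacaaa
Col4a2 (chr8:11312555-11312854, plus strand): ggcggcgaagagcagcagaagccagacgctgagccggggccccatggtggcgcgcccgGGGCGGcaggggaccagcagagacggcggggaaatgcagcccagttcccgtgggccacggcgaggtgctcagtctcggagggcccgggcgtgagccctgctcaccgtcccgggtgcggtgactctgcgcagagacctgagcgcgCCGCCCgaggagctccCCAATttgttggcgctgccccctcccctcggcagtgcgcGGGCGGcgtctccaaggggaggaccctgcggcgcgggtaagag
Col4a6 (chrX:141474027-141474326, minus strand): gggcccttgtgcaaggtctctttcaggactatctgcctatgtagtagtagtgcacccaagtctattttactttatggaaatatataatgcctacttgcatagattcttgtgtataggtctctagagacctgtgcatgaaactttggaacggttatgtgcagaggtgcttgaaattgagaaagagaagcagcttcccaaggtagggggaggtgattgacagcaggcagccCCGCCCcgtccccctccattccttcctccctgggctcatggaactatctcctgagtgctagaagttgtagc
Col4a5 (chrX:141475169-141475468, plus strand): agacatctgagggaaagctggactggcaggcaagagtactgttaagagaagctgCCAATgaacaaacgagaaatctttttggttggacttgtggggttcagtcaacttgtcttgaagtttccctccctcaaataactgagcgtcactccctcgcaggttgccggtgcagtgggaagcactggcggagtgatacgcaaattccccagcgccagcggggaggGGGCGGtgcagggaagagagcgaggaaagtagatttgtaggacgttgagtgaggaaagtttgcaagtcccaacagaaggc
Col16a1 (chr4:130047590-130047889, plus strand): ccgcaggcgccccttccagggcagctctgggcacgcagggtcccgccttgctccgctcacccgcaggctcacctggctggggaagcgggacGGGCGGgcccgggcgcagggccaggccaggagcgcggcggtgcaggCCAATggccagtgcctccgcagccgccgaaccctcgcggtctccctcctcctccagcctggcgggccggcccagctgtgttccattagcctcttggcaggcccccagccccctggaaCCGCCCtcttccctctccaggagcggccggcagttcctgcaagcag
Col20a1 (chr2:180986285-180986584, plus strand): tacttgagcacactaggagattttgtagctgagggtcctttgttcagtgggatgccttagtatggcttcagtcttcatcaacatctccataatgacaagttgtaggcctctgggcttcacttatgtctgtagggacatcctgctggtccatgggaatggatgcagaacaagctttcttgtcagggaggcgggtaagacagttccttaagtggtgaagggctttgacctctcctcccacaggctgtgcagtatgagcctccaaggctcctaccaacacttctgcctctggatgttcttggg
The annotated starts of Col4a1 and Col4a2 overlap by 22 bases, the starts of Col4a4 and Col4a3 (chromosome 1) are separated by 71 bases, and those of Col4a6 and Col4a5 by 1308 bases. Col4a1 and Col4a2 had CpG-rich windows, with 37 and 33 CpG dinucleotides, against 11 for Col4a5 and 3 for Col4a6. Col16a1 held 24 CpG and Col20a1 held 1. Windows were matched for 35 of the 44 members (38 windows, since some have several starts). A GC box was present in 60.5% of them and in 35.7% of all 32851 mouse windows, and the median CpG count was 11.5 against 7. CCAAT boxes (34.2% against 37.4%) and TATA boxes (13.2% against 13.6%) were found at like rates, an AP-1 motif was in 2.63% against 7.81%, and the interferon element core was in none of the 38 against 3.44%.

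Libraries held 9954415 to 18750763 counts in the depletion experiment, 81351559 to 92226421 in the training experiment and 48769140 to 58655523 in mice without virus. Levels are CPM, reads scaled to a common library size with the trimmed mean of M values (TMM). Counts of the training experiment run over whole transcripts, introns included, so its levels are not on the scale of the other tables. The targeted genes were checked first. H2afy was at 43.5, 44.5 and 38.7 CPM in shH2afy mice, below the 60.6, 59.2 and 50.6 CPM of shScr mice (log2 fold change -0.37, SE 0.10, edgeR adjusted p = 0.031, which misses the 0.01 threshold) and the 72.1, 66.3 and 67.5 CPM of shH2afy2 mice (adjusted p = 0.00346). H2afy2 was at 13.2, 8.21 and 7.74 CPM in shH2afy2 mice against 18.2, 19.0 and 18.2 CPM in shScr mice, with no overlap (-0.95, SE 0.22, adjusted p = 0.0907). In the training experiment the same check went against the labels. H2afy, listed there as Macroh2a1, was 87.0 to 99.2 CPM in the 6 libraries labelled shH2afy and 79.2 to 86.2 CPM in the 6 shScr libraries (log2 fold change 0.14, SE 0.04, adjusted p = 0.00415). Hence these are called the libraries labelled shH2afy, and directions drawn from them rest on the label.

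Collagen RNA was more abundant after mH2A1 shRNA than in either other virus group of the depletion experiment. Collagen genes took 0.0607 to 0.0794% of counts in shH2afy mice, 0.0276 to 0.0321% in shScr mice and 0.0275 to 0.0375% in shH2afy2 mice. Against shScr, 38 members passed the filter on low counts and 18 were higher at adjusted p under 0.01 (edgeR quasi-likelihood test), none lower. Across all 16179 genes tested, 12.6% were higher and 4.47% lower. DESeq2 called 22 members higher and 1 lower, where 16.3% and 10.7% of genes were. The median log2 fold change was 1.53 over the tested members and 0.01 over all genes. Groups did not overlap for 24 members, 23 of them above shScr and 1, Col25a1, below (23.7% and 25% of all genes). The 6 members left out by the filter, Col4a3, Col6a6, Col10a1, Col17a1, Col24a1 and Col28a1, stayed at or under 1.33 CPM in all 9 libraries.

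Fibrillar chains rose in 6 of the 10 tested: Col1a2, Col2a1, Col3a1, Col5a2, Col5a3 and Col27a1. Col5a3, a minor type V chain, was at 25.1, 23.6 and 28.3 CPM in shH2afy mice and 3.45, 1.58 and 2.35 CPM in shScr mice. Its log2 fold change was 3.44 (SE 0.27, adjusted p = 0.000245). Col2a1, the type II chain best known from cartilage, was at 19.0, 11.7 and 12.9 CPM against 1.31, 1.39 and 2.35 CPM. Every shH2afy library stood above every shScr library for both genes, and Col2a1 changed by 3.19 on the log2 scale (SE 0.31, adjusted p = 0.000493). Col3a1, the type III chain, was at 12.7, 9.98 and 2.87 CPM against 1.24, 1.27 and 0.919 CPM. Replicate 3 of shH2afy was the lowest of its group for Col3a1, as it was for Col1a1, Col1a2, Col9a2, Col18a1 and Col20a1, but stayed above shScr in each. Col3a1 gave 2.94 (SE 0.55, adjusted p = 0.00624), and Col1a2, one of the type I chains, gave 2.28 (SE 0.32, adjusted p = 0.00206).

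The remaining fibrillar chains did not pass the threshold. Col1a1, the partner of Col1a2 in type I fibres, was at 14.5, 8.57 and 4.37 CPM against 3.93, 3.67 and 2.96 CPM (1.43, SE 0.41, adjusted p = 0.0324). Col5a1 overlapped between groups because shScr replicate 2 held 16.0 CPM against 4.07 and 5.51 CPM in the other shScr mice. Col11a1 (1.34, SE 0.40, adjusted p = 0.038) and Col11a2 (0.63, SE 0.23, adjusted p = 0.0709) were the other tested fibrillar chains without a call.

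Type IV divided by gene pair. Col4a5 was at 16.4, 14.2 and 12.1 CPM in shH2afy mice and 2.76, 2.28 and 2.14 CPM in shScr mice, and changed by 2.62 on the log2 scale (SE 0.19, adjusted p = 0.000213). Col4a6 was at 9.53, 8.40 and 5.81 CPM against 1.03, 0.380 and 0.511 CPM (3.66, SE 0.39, adjusted p = 0.000686). Both chains of this X-linked pair therefore rose with no overlap. Col4a1 was at 50.1, 46.6 and 45.4 CPM against 47.2, 32.9 and 29.8 CPM, so that shScr replicate 1 reached the shH2afy range (0.43, SE 0.17, adjusted p = 0.0829). Col4a2 was at 38.5, 42.9 and 41.4 CPM against 48.8, 41.4 and 32.3 CPM, with complete overlap (0.07, SE 0.14, adjusted p = 0.742). Col4a4 was between the pairs, at 3.31, 2.38 and 2.25 CPM against 0.966, 0.443 and 1.12 CPM (1.73, SE 0.40, adjusted p = 0.0139, not past 0.01). The starts of Col4a1 and Col4a2 overlap on opposite strands and the use of strand in counting is not stated, so a few reads cannot be assigned between them. In each library the ratio of Col4a5 to Col4a1 CPM was 0.267 to 0.327 in shH2afy mice, 0.0585 to 0.0719 in shScr mice and 0.0832 to 0.122 in shH2afy2 mice.

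**Figure D1:**
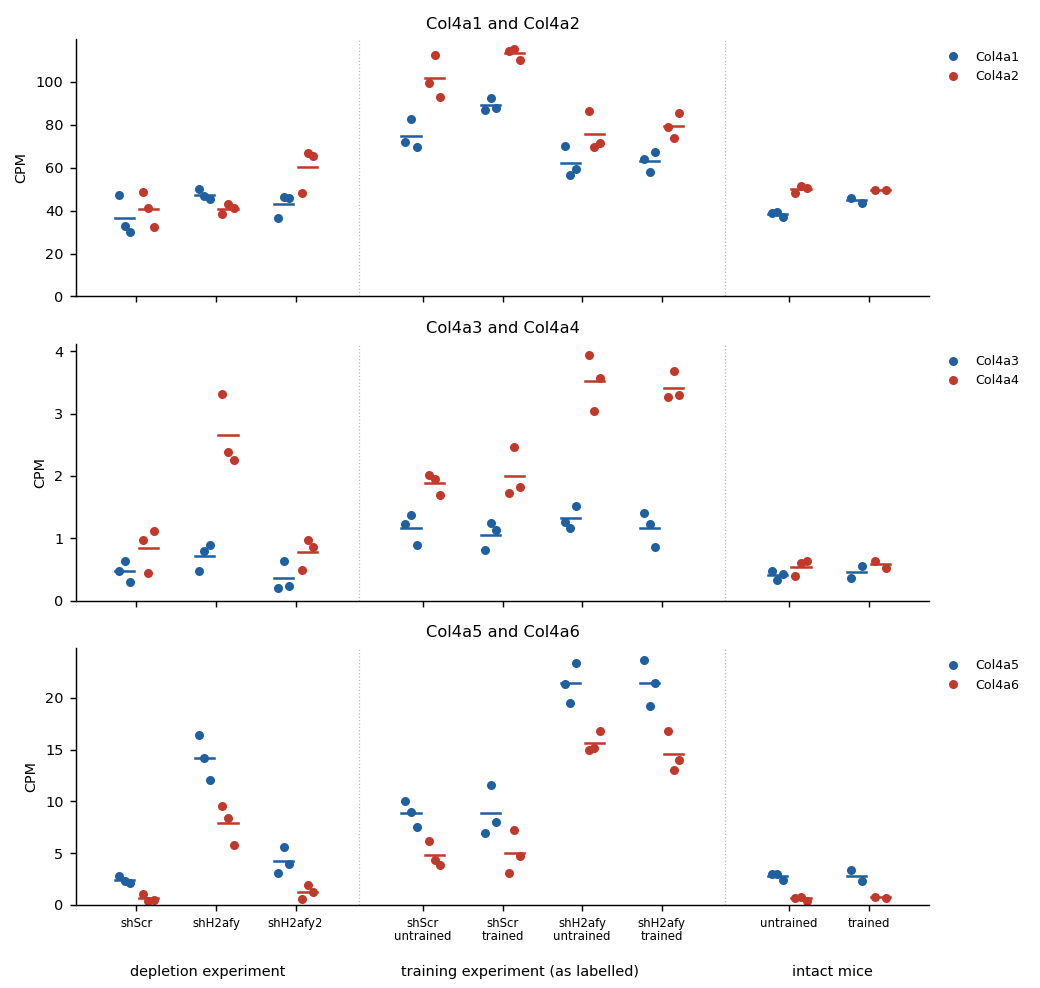
CPM (y axis, linear from 0) of the 6 type IV genes in each RNA library (points) with group means (lines), by virus and training (x axis). Col4a5 and Col4a6 of the libraries labelled shH2afy sit above those of shScr in both experiments, 12.1 to 16.4 against 2.14 to 2.76 CPM for Col4a5 in the depletion experiment, whereas Col4a1 and Col4a2 do not.

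Fibril-associated collagens rose in 5 of 9 tested, Col9a1, Col9a3, Col12a1, Col16a1 and Col20a1. Col20a1 was at 64.3, 63.7 and 35.7 CPM against 3.24, 5.26 and 2.45 CPM, and its log2 fold change of 3.94 (SE 0.33, adjusted p = 0.000306) was the largest of the 38 members tested. Col16a1, which associates with fibrils and basement membranes, was at 62.9, 63.1 and 48.6 CPM against 7.80, 6.40 and 6.74 CPM (3.12, SE 0.16, adjusted p = 5.88e-05). Neither gene overlapped between the groups, and Col16a1 had the smallest adjusted p of the members. Col9a3, a type IX chain that coats type II fibrils, was at 61.0, 63.6 and 38.2 CPM against 17.5, 10.3 and 11.6 CPM (2.10, SE 0.26, adjusted p = 0.00126). Col9a1 gave 2.74 (SE 0.31, adjusted p = 0.000806) from levels of 2.38 to 3.18 CPM, while Col9a2 gave 1.52 (SE 0.40, adjusted p = 0.024). Col14a1, Col19a1 and Col22a1 did not pass, at -0.92, -0.79 and 0.28.

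Of the other classes, type VI rose in 2 of 5 tested (Col6a2, 1.90, SE 0.34 and Col6a3, 1.81, SE 0.32), both multiplexins rose (Col18a1, 2.27, SE 0.29 and Col15a1, 1.55, SE 0.22), and transmembrane Col13a1 rose (2.75, SE 0.51, adjusted p = 0.00625). Col18a1, whose C-terminal fragment is endostatin, was at 19.1, 16.8 and 9.56 CPM against 3.04, 3.17 and 3.68 CPM. Col6a1, which needs Col6a2 and Col6a3 to assemble type VI trimers, was at 27.6, 32.2 and 21.3 CPM against 4.76, 13.5 and 20.3 CPM and did not pass (adjusted p = 0.0989). Its shScr replicates were widely spread, as were those of Col23a1, at 1.59, 11.0 and 8.68 CPM. Col25a1, a neuronal transmembrane collagen found in amyloid plaques, was the one member lying wholly below shScr, at 38.8, 29.9 and 41.9 against 78.9, 55.4 and 51.3 CPM (-0.68, SE 0.19, adjusted p = 0.0284, not past 0.01). None of the 4 tested short-chain and other collagens (Col8a1, Col8a2, Col7a1 and Col26a1) passed.

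**Figure D2:**
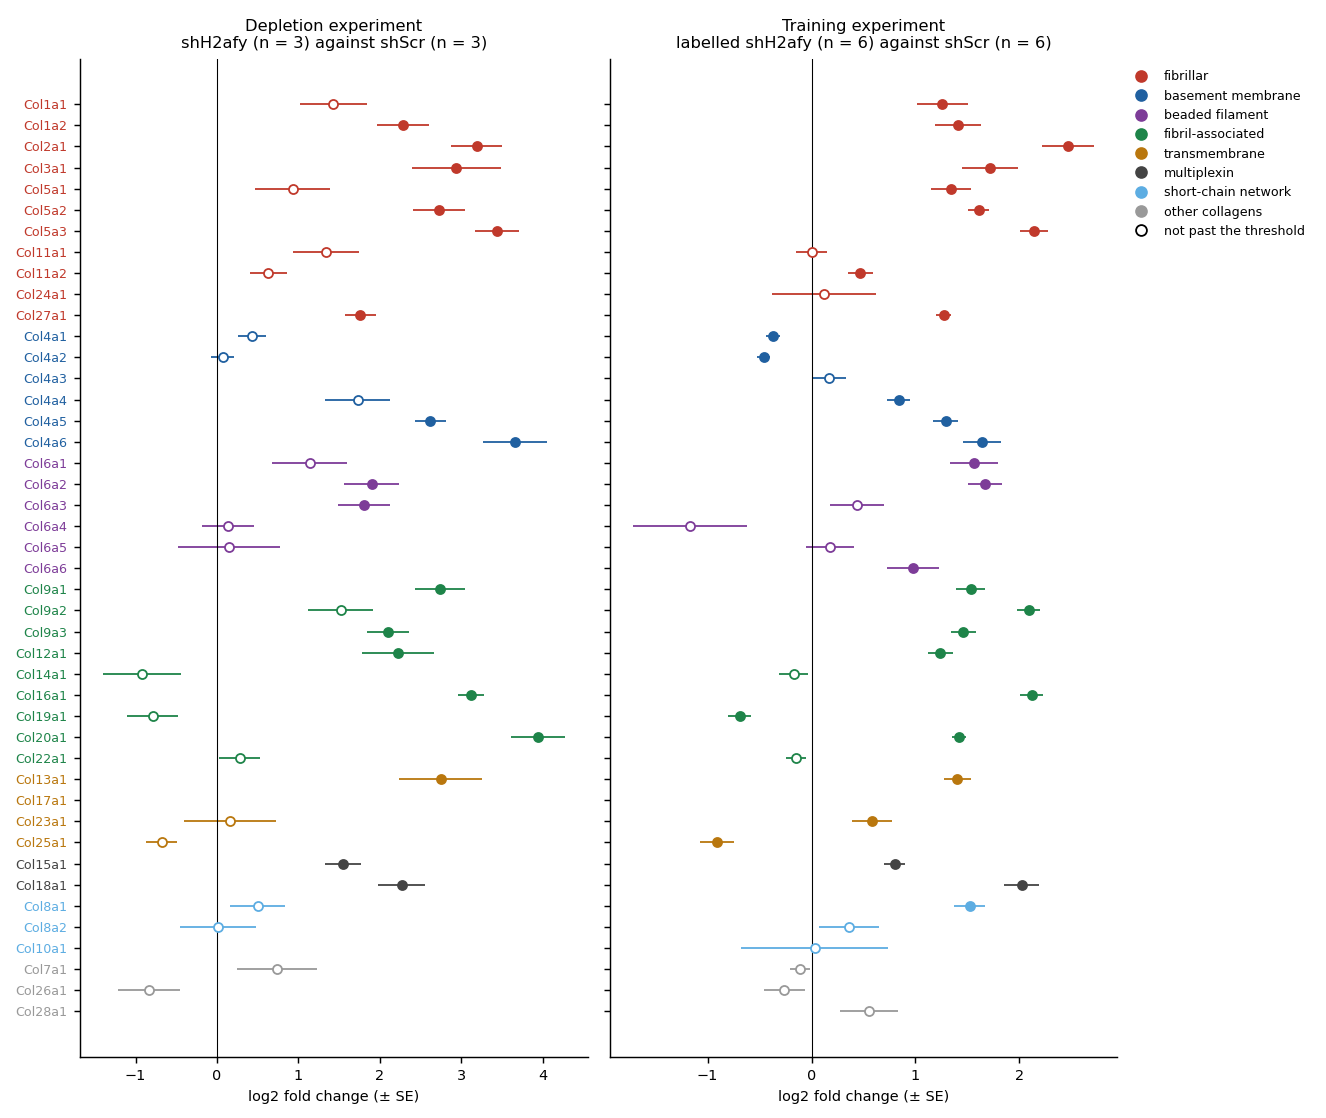
Log2 fold change with its standard error (x axis) of each tested collagen gene (y axis, coloured by class) for shH2afy against shScr in the depletion experiment (left) and the training experiment (right); filled points passed the threshold of that experiment. Filled points reach from Col15a1 at 1.55 to Col20a1 at 3.94 on the left, and on the right Col4a1, Col4a2, Col19a1 and Col25a1 lie below 0.

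Levels of different genes can be set side by side only per length. Per kb of exon, the top collagens of shScr mice were Col4a2 (6.16 CPM per kb, SD 1.25), Col4a1 (4.91, SD 1.24), Col25a1 (4.78, SD 1.15) and Col11a2 (4.53, SD 1.52), whose order is within their spread. Untrained mice without virus had the same 3 leading genes, Col4a2 at 7.58, Col4a1 at 5.15 and Col25a1 at 5.05 CPM per kb. In shH2afy mice the top 3 were Col9a3 (14.1 CPM per kb, SD 3.63), Col20a1 (10.6, SD 3.18) and Col16a1 (8.62, SD 1.23), with Col11a2, Col4a1 and Col4a2 next at 6.70, 6.35 and 6.19. Col20a1 overlapped both Col9a3 and Col16a1 across the 3 libraries, whereas the lowest Col9a3 library (9.91) was above the highest Col16a1 library (9.35).

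Summed over the 11 genes, fibrillar CPM was 171 to 221 in shH2afy mice, 57.1 to 88.8 in shScr mice and 57.0 to 101 in shH2afy2 mice. The sum of Col4a1 and Col4a2 was 86.8 to 89.5, 62.1 to 96.0 and 85.1 to 113 CPM in the same order, and that of Col4a3 to Col4a6 was 21.0 to 29.7, 3.74 to 5.24 and 4.30 to 9.17 CPM. The fibrillar sum therefore moved away from the type IV sum within libraries: their ratio, not corrected for length and so read only between groups, was 1.59 to 1.87 in shH2afy mice, 0.863 to 0.907 in shScr mice and 0.638 to 0.824 in shH2afy2 mice.

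**Figure D3:**
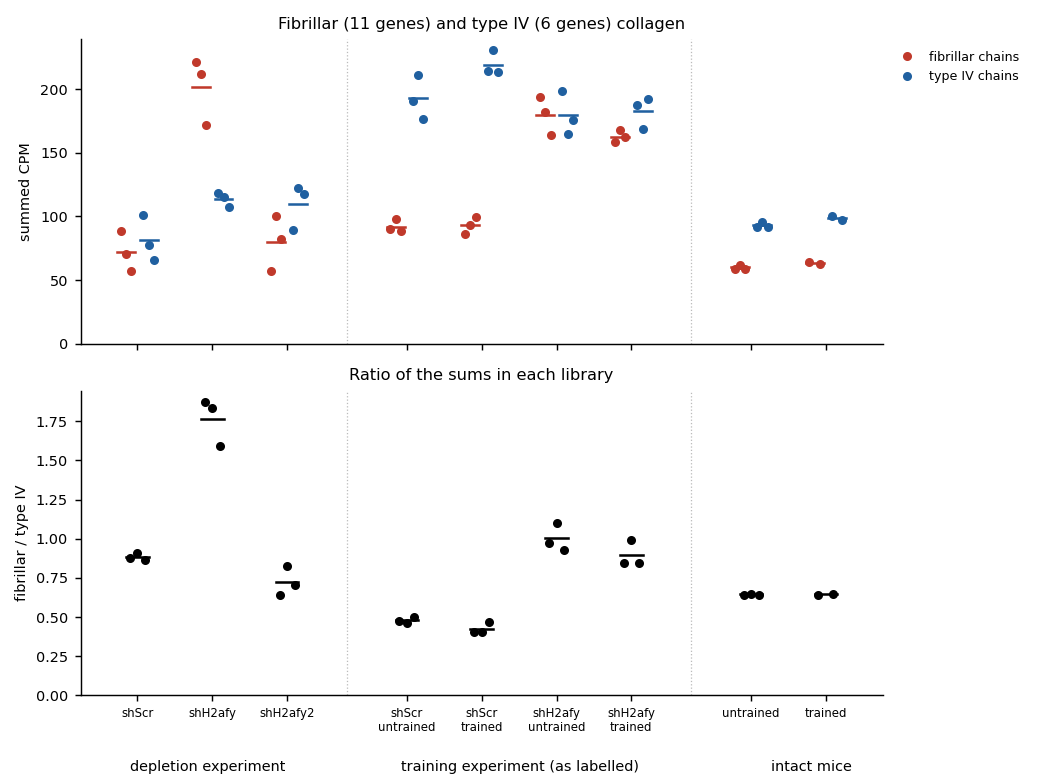
Top, summed CPM (y axis, linear from 0) of the 11 fibrillar and 6 type IV genes in each RNA library (points) with group means (lines), by virus and training (x axis); bottom, ratio of both sums. The ratio is 1.59 to 1.87 in shH2afy mice of the depletion experiment and 0.863 to 0.907 in shScr mice, and 0.640 to 0.649 in all 5 mice without virus.

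Depletion of mH2A2 was measured against the same shScr mice. None of 37 tested collagens passed, as none of 15609 genes did with edgeR (0% higher and 0% lower), although 5 collagens and 3238 genes were under an unadjusted 0.05. With DESeq2 it was again 0 collagens, where 1.5% of genes were higher and 1.57% lower. The median collagen log2 fold change was 0.20. Groups did not overlap for 1 member above and 1 below, where 14.8% and 10.7% of all genes were. Col4a5 was the one above shScr in every mouse, at 3.05, 5.63 and 3.98 CPM (0.79, SE 0.28, adjusted p = 0.178), and Col8a1, a chain of the short-chain network of vessel walls, was the one below, at 0.763, 1.66 and 0.577 against 2.55, 1.77 and 3.68 CPM (-1.41, SE 0.47, adjusted p = 0.166). Col20a1 was at 3.26, 8.69 and 6.53 CPM and Col16a1 at 6.66, 11.4 and 8.08 CPM, both overlapping shScr.

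The difference between the hairpins was tested directly. Of 39 collagens tested between shH2afy and shH2afy2 mice, 18 were higher in shH2afy mice and none lower (9.83% and 6.74% of 16294 genes), with a median of 1.47, and DESeq2 called 24 higher and 1 lower (15.7% and 12.9% of genes). The highest were Col20a1 (3.16, SE 0.37, adjusted p = 0.00216), Col2a1 (2.83, SE 0.33), Col16a1 (2.76, SE 0.21), Col4a6 (2.66, SE 0.41) and Col5a2 (2.52, SE 0.22). Col4a2 went the other way, at 48.4, 67.0 and 65.3 CPM in shH2afy2 mice, above all 3 shH2afy mice (-0.53, SE 0.14, adjusted p = 0.0231, not past 0.01). This count rested on single libraries. Leaving out shH2afy replicate 1 left 0 collagens and 2 genes of any kind, and leaving out shH2afy replicate 2, shH2afy2 replicate 1 or shH2afy2 replicate 3 left 6, 5 and 1 collagens. In the comparison with shScr, leaving out shScr replicate 3, the shallowest library at 9954415 counts, left 10 collagens, all higher, and Col1a2, Col3a1, Col6a2, Col6a3, Col9a3, Col12a1, Col13a1 and Col15a1 no longer passed. Apart from the fit without shH2afy replicate 1, the share of all genes called in these fits is not given. A loss of collagen calls can therefore not be told from a loss over all genes.

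The training experiment used other mice. With untrained and trained mice together, 43 collagens were tested, 26 were higher in the 6 libraries labelled shH2afy and 4 lower, at adjusted p under 0.05. The background was 32.7% higher and 31.7% lower of 15997 genes, DESeq2 also called 26 and 4 members (33% and 32.9% of genes), and the median log2 fold change was 0.98 over the members and 0.00 over all genes. In untrained mice alone 24 were higher and 3 lower of 42 (26.2% and 21.7% of 15799 genes; 25 and 3 with DESeq2, against 26.6% and 24.5%), and in trained mice alone 26 were higher and 4 lower of 42 (24.2% and 21.7% of 15703 genes; 26 and 4 with DESeq2, against 25.6% and 23.3%).

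Members that led the depletion experiment were also high here. Col5a3 ranged from 9.23 to 13.9 CPM (median 11.4) in the libraries labelled shH2afy and from 1.91 to 3.35 CPM (median 2.62) in shScr libraries (2.14, SE 0.13, adjusted p = 2.3e-07). Col16a1 ranged from 28.6 to 40.5 CPM (median 34.3) against 6.13 to 9.39 CPM (median 8.04), and Col20a1 from 51.6 to 64.3 CPM (median 60.8) against 17.9 to 27.3 CPM (median 22.2). Neither overlapped, with log2 fold changes of 2.12 (SE 0.11) and 1.42 (SE 0.07). Col2a1 ranged from 2.29 to 8.76 CPM against 0.707 to 0.965 CPM and had the largest fold change of the 43 (2.47, SE 0.25, adjusted p = 4.79e-06). Col9a2, without a call in the depletion experiment, gave 2.09 (SE 0.11), and Col8a1 gave 1.52 (SE 0.15).

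Col4a5 ranged from 19.2 to 23.7 CPM in the libraries labelled shH2afy and from 6.99 to 11.6 CPM in shScr libraries (1.29, SE 0.12, adjusted p = 1.97e-06). Col4a6 ranged from 13.0 to 16.8 CPM against 3.10 to 7.20 CPM (1.64, SE 0.18, adjusted p = 7.14e-06). Col4a1 and Col4a2 fell. Col4a2 ranged from 69.5 to 86.6 CPM against 93.1 to 115 CPM with no overlap (-0.46, SE 0.06, adjusted p = 5.68e-05), and Col4a1 from 56.7 to 70.2 CPM against 69.7 to 92.4 CPM, overlapping by one library on either side (-0.37, SE 0.07, adjusted p = 0.000496; 0.0779 in untrained and 0.00225 in trained mice alone). Hence the ratio of Col4a5 to Col4a1 was 0.304 to 0.391 against 0.0805 to 0.140, and the fibrillar to type IV ratio 0.843 to 1.10 against 0.403 to 0.499. The remaining members that fell were Col25a1, at 47.0 to 98.3 against 135 to 166 CPM (-0.91, SE 0.16, adjusted p = 0.000331), and Col19a1, a fibril-associated chain made by interneurons, at 18.4 to 27.7 against 28.9 to 38.9 CPM (-0.69, SE 0.11, adjusted p = 0.000163).

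Both experiments can be set side by side because they share no library. Of the 38 collagens tested in both, 17 of the 18 higher in the depletion experiment were also higher here, which is 94.4% of them and 68% of the 25 higher here. Over all 14124 genes tested in both, 96.3% of those higher in the depletion experiment were higher here, which is 41.6% of those higher here. Col6a3 was the one higher in depletion alone (1.81, SE 0.32 against 0.44, SE 0.26). Across genes, which are not independent replicates, Spearman's rho of both fold changes was 0.81 over the collagens and 0.80 over all genes. Folds were larger in the depletion experiment for all 17 shared members, for instance Col20a1 at 3.94 against 1.42, though introns were counted in the training experiment alone.

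Fear conditioning itself called no collagen. Under shScr, none of 42 tested passed (0% of 15424 genes with edgeR, 7 collagens and 1382 genes at unadjusted p under 0.05), and under the label shH2afy none of 42 (0% of 15866 genes, 0 collagens and 613 genes at unadjusted p under 0.05, and DESeq2 called 0 collagens where 0.246% and 0.0504% of genes were higher and lower). DESeq2 called 2 collagens under shScr, both lower, where 1.15% of genes were higher and 0.48% lower. Under shScr, Col22a1, found at tissue junctions, was at 2.97, 3.12 and 3.26 CPM after training and 4.80, 4.99 and 4.39 CPM before (-0.60, SE 0.11, adjusted p = 0.237), and Col6a6 at 0.345, 0.476 and 0.444 against 1.41, 0.971 and 0.955 CPM (-1.40, SE 0.26, adjusted p = 0.269). Col4a1 was at 86.8, 92.4 and 87.9 CPM against 72.0, 82.5 and 69.7 CPM (0.25, SE 0.07, adjusted p = 0.388). These did not overlap but failed the correction. Under shScr, groups did not overlap for 3 members above and 4 below of 42, where 7.51% and 7.32% of all genes were. The interaction of virus and training called 0 of 43 collagens and 0% of 15997 genes (2 collagens and 333 genes at unadjusted p under 0.05, and 0 with DESeq2), so a different training response between viruses was not detectable in this design.

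In mice without virus, 0 of 42 collagens passed at adjusted p under 0.01, where 0.0959% of 15641 genes were higher and 0% lower (8 collagens and 3120 genes at unadjusted p under 0.05, and DESeq2 called 0 collagens, where 2.28% and 0.665% of genes were higher and lower). Col4a1 was at 46.0 and 43.6 CPM in trained and 39.0, 39.4 and 37.0 CPM in untrained mice (0.22, SE 0.05, adjusted p = 0.104). Its groups did not overlap, and its direction was that of shScr mice. Under the label shH2afy the Col4a1 groups overlapped, at 63.9, 58.1 and 67.4 CPM after training and 70.2, 56.7 and 59.6 CPM in untrained mice. Col8a1 was at 2.82 and 2.39 against 4.62, 3.90 and 3.24 CPM (-0.59, SE 0.18, adjusted p = 0.143), and Col22a1 at 1.34 and 1.08 against 1.52, 1.65 and 1.66 CPM (-0.41, SE 0.17, adjusted p = 0.244). Overlapping groups were the rule, with 7 members above and 6 below of 42 where 20.6% and 19.1% of all genes were, 2 mice against 3.

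Genes that make, cut, bind or surround collagen were counted by list, against 12.6% higher and 4.47% lower over all genes. Of enzymes and chaperones of collagen synthesis, 11 of 19 tested were higher in shH2afy than in shScr mice of the depletion experiment and 8 did not pass (median 0.90), among them the lysyl hydroxylase Plod2 (2.24, SE 0.14) and the collagen chaperone Serpinh1 (1.94, SE 0.19). Of procollagen processing and crosslinking genes 6 of 13 were higher (median 1.38), led by the lysyl oxidases Loxl1 (3.22, SE 0.21) and Lox (5.15, SE 0.46). Of degradation genes 7 of 11 were higher, with the inhibitor Timp1 (8.13, SE 0.54) and the gelatinase Mmp2 (3.50, SE 0.28). None of these lists had a lower member. Collagen receptors were higher in 6 of 9 (Itga2, 4.07, SE 0.36 and Ddr2, 1.45, SE 0.19), interstitial partners in 10 of 14 (Thbs1, 4.29, SE 0.24 and Tnc, 3.12, SE 0.25) and genes of the TGF-beta pathway, a known inducer of collagen genes, in 8 of 12 (Tgfbr2, 2.98, SE 0.20).

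Basement membrane partners such as laminins were higher in 5 of 19 (median 0.54), with Sparc (1.84, SE 0.22), Nid1 (1.49, SE 0.20), Lamb2 (0.96, SE 0.14) and Lamc1 (0.88, SE 0.13). Against shH2afy2, where 9.83% of all genes were higher and 6.74% lower, all 7 lists again had more higher than lower members. Higher were 7 of 19 (synthesis), 3 of 13 (crosslinking), 6 of 11 (degradation) and 5 of 9 (receptors). So were 5 of 19 (basement membrane), 9 of 14 (interstitial) and 6 of 12 (TGF-beta), and 1 synthesis gene was lower. In shH2afy2 mice against shScr, 0 members of these lists passed, as 0 of all 15609 genes did with edgeR. In the training experiment, where 32.7% of all genes were higher and 31.7% lower, the libraries labelled shH2afy had higher and lower members of 11 and 3 (synthesis, of 19), 8 and 2 (crosslinking, of 14), 13 and 0 (degradation, of 14), 6 and 0 (receptors, of 9), 11 and 3 (basement membrane, of 19), 12 and 0 (interstitial, of 14) and 10 and 0 (TGF-beta, of 12).

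Markers of some cell types moved with the collagens. Against shScr in the depletion experiment, those of fibroblasts and vessels were called at shares closer to the 12.6% higher over all genes. Against shH2afy2 mice, 9.83% of all genes were higher. There fibroblast and meningeal markers were higher in 3 of 11, mural markers in 3 of 9 and endothelial markers in 0 of 10, none lower. In bulk tissue fewer cells of a type and less RNA per cell cannot be told apart. Of fibroblast and meningeal markers 2 of 12 were higher in shH2afy than shScr mice (Gjb2, 1.98, SE 0.23 and Mgp, 2.52, SE 0.46), with summed levels of 125 to 168 against 67.1 to 133 CPM, which overlap. Mural markers were higher in 1 of 9 (176 to 190 against 138 to 169.5 CPM, with no overlap of the sums). Endothelial markers were higher in 1 of 10 (173 to 202 against 131 to 179 CPM) and choroid plexus markers in 0 of 8 (122 to 361 against 192 to 497 CPM). Reactive astrocyte markers were higher in 9 of 10 (4846 to 6311 against 345 to 737 CPM), microglia and macrophage markers in 9 of 10 (1011 to 3592 against 184 to 284 CPM) and markers of dividing cells in 6 of 6 (61.9 to 86.6 against 5.45 to 13.2 CPM). No marker of these lists was at 0 in either group. CA1 pyramidal markers, present in every library, summed to 1379 to 1850 CPM in shH2afy mice and 2277 to 3885 CPM in shScr mice, with 2 of 8 lower, inhibitory neuron markers were lower in 5 of 8 and oligodendrocyte markers in 0 of 8 (none higher). In shH2afy2 mice reactive astrocyte markers summed to 676 to 1298 CPM and dividing-cell markers to 4.22 to 10.0 CPM. In the training experiment reactive astrocyte markers summed to 1749 to 2094 CPM in the libraries labelled shH2afy and 295 to 618 CPM in shScr libraries. Fibroblast and meningeal markers were higher there in 6 of 12, mural markers in 6 of 10 and endothelial markers in 8 of 10, none lower. Over all genes of that experiment 32.7% were higher and 31.7% lower. The part of these cells in the collagen result was not tested.

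mH2A occupancy was read from broad domains called for each ChIP library, in untrained mice and in mice 30 min, 1 h or 6 h after fear conditioning, none of which received virus. There were 30 such libraries: mH2A1 at 30 min (3 untrained, 2 trained), 1 h (2 and 2) and 6 h (5 and 5), and mH2A2 at 30 min (3 and 2) and 1 h (3 and 3). Cover is the percent of a gene body inside domains, from coordinates on mm10. Domain lists hold no read totals, so read depth could not be set beside cover. A different mH2A1 antibody was used at 30 min than at 1 h and 6 h. Certain libraries stood apart. Replicate 1 of untrained mH2A2 at 1 h correlated at 0.58 with mH2A1 cover at 6 h over genes and at 0.35 with the other 1 h mH2A2 libraries, which correlated with each other at 0.78 to 0.86. Replicate 2 of trained mH2A2 at 30 min covered 9.13% of autosomes, against 12.6 to 18.1% in the other mH2A2 libraries, and correlated at 0.43 with untrained mH2A2. The 1 h untrained mH2A1 libraries carry an mH2A2 antibody in one label and mH2A1 in the title, and correlated at 0.94 and 0.85 with mH2A1 at 6 h and at 0.44 with mH2A2 at 1 h. The X chromosome was nearly free of domains (0.0778 to 0.394% covered), so the cover of Col4a5 (0% in all 30 libraries) and Col4a6 (at most 0.518%) is near that of their chromosome, and levels below are over the 42 autosomal members.

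Autosomal collagen genes were more covered than genes in general. In untrained mice the median cover of the 42 members was 81.9 to 86.4% per library for mH2A1 at 6 h, 59.5 to 82.4% at 1 h and 44.5 to 59.7% at 30 min, where the median of all autosomal genes was 0 to 10.4%. For mH2A2 it was 37.6 to 47.3% at 30 min and 31.5 to 64.3% at 1 h (44.2 to 60.6% as a mean over libraries when each is left out in turn, and 60.6% without replicate 1), against 0 to 17.9% over all genes. At least 50% of the gene body was covered by mH2A1 at 6 h in 25 of 42 members (59.5%) and in 23.3% of 20780 genes. Members were richer in GC than other genes (median 47.9% against 45.4%), and of 7514 genes with GC at or above the collagen median 38.7% were covered to that extent. That share is for the higher GC range alone, so it is not a match for the 59.5% of all members. Members at or above that GC were all covered to that extent by group mean, save Col4a2 (49.4% GC, 1.62% covered). Across the 42 members Spearman's rho of GC and cover was 0.76, and 0.32 across all genes. Members were also longer than other genes (median span 110.85 kb against 17.6 kb), and cover was not compared at like length. Covered members had a median GC of 51.1% and span of 51.4 kb, and the others 40.9% and 135 kb.

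Of fibrillar genes 6 of 11 were covered over at least 50% by mH2A1 in untrained mice at 6 h. Col5a3 was covered at 100, 100, 100, 99.0 and 100% and Col2a1 at 96.6, 97.2, 100, 88.0 and 100%. By contrast Col3a1, Col5a2 and Col11a1 were at 0% in all 5, and Col1a2 at 4.87 to 45.0%. Hence the neighbours Col3a1 (chr1:45311538-45349706) and Col5a2 (chr1:45374321-45503282) rose in the depletion experiment and had no mH2A1 domain in untrained mice at 1 h or 6 h (Col5a2 had 3.88, 1.24 and 0% at 30 min), while Col5a3 and Col2a1 rose and were covered. All 6 type VI genes (88.0 to 100% by group mean at 6 h, but 42.5 to 96.9% for mH2A1 and 20.1 to 95.4% for mH2A2 at 30 min) and both multiplexins (98.3 and 98.8%) were covered. Col16a1 was covered at 93.9 to 100%. Col20a1 was covered at 34.6 to 80.4% over the gene body by mH2A1 but at 0% within 2 kb of its start, where mH2A2 at 30 min reached a mean of 75.5%.

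No autosomal type IV gene reached a mean of 50% for mH2A1 at 6 h in untrained mice. Col4a1 was covered at 0 to 6.45% at 6 h and 0% at 1 h, and Col4a2 at 0 to 5.34% and 0 to 3.22%. For mH2A2 they were at 14.3, 46.0 and 36.4% and at 9.82, 79.0 and 30.3% at 30 min, where mH2A1 in the same mice was at 7.69, 20.7 and 0% and at 6.36, 40.7 and 8.35%. The mH2A2 value was the higher in each mouse for both genes, but neither passed (limma adjusted p = 0.462 for each). Over all genes tested, 62.1% had less mH2A1 than mH2A2 cover by mean. Col4a4 and Col4a3 were covered at 40.9 to 51.5% and 37.4 to 42.1% by mH2A1 at 6 h, and the 2 kb on either side of their starts at a mean of 86.3 and 85.2%. In the 3 untrained mice with both antibodies, 29 of 42 tested collagens had more mH2A1 than mH2A2 cover, with a median difference of 2.95 points (all genes -3.03), but 0 collagens passed at adjusted p under 0.05 in limma with the mouse as a block, as did 0% of 16902 genes (3 collagens and 1978 genes at unadjusted p under 0.05). Col15a1 had the largest mean difference of those 3, at a mean of 84.4% against 39.4% (adjusted p = 0.369).

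**Figure D4:**
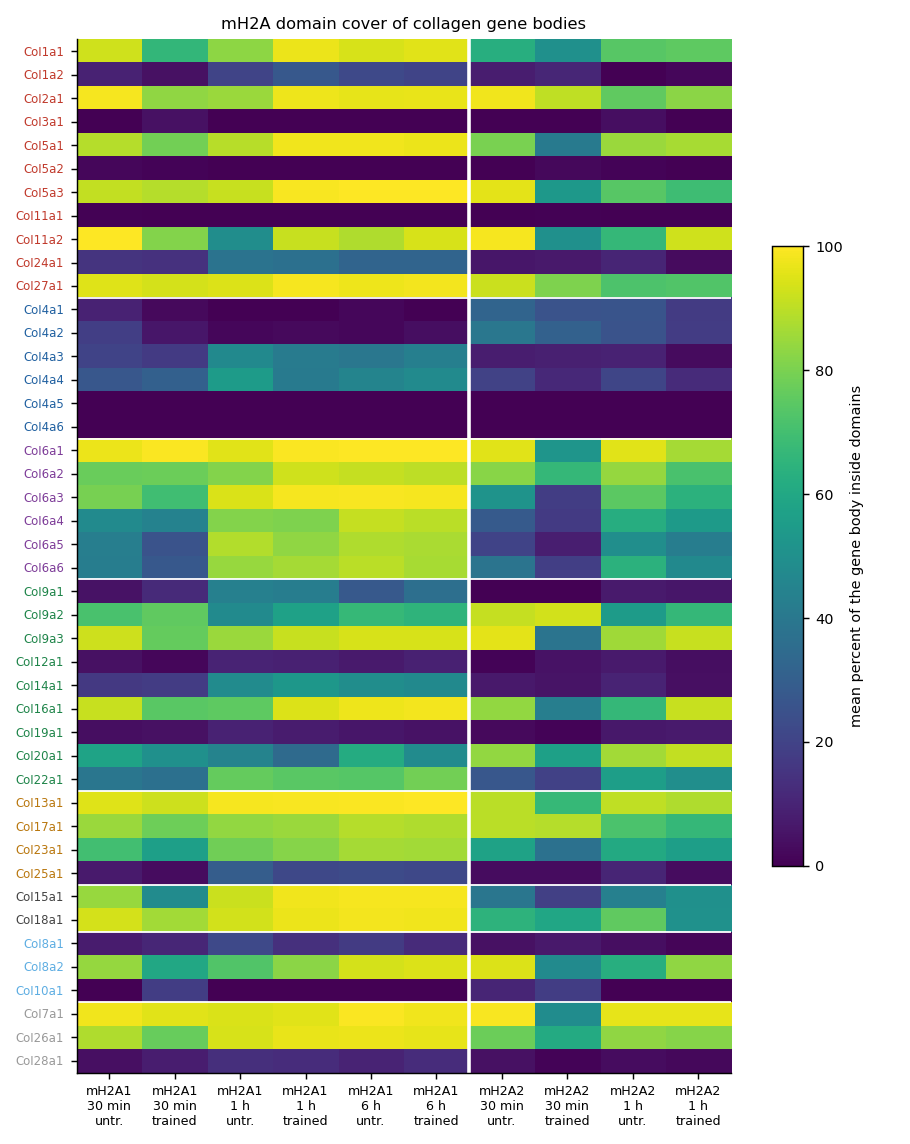
Mean percent of each collagen gene body (rows, coloured by class) inside mH2A domains in each ChIP group (columns), from 0 (dark) to 100 (bright). Type VI genes and multiplexins are bright for mH2A1 at 6 h (88.0 to 100%), Col3a1, Col5a2 and Col11a1 are dark, and Col4a1 and Col4a2 are brighter for mH2A2 than for mH2A1.

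Of 36 autosomal members tested in the depletion experiment, 11 of 23 covered over at least 50% by mH2A1 at 6 h were higher in shH2afy mice and 5 of 13 of the others. Over all genes the shares were 33.2% and 9.92%. In the training experiment 17 of 24 covered and 7 of 17 other members were higher (55.9% and 27.4% of all genes). Across members Spearman's rho of cover and fold change was 0.17 in the depletion and 0.29 in the training experiment, against 0.23 and 0.33 across all genes. Members share a class and neighbours on the chromosome, so these are descriptions over 36 and 41 genes.

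Fear conditioning called no collagen gene for cover. At 30 min, 0 of 43 passed for mH2A1 (0.122% of 15544 genes were higher and 1.03% lower) and 0 of 41 for mH2A2 (0.0945% and 0.472% of 16935). At 1 h, 0 of 37 passed for mH2A1 (0.103% and 0.0723% of 9685) and 0 of 40 for mH2A2 (0.00577% and 0.0173% of 17332). At 6 h, 0 of 38 passed for mH2A1 (0% of 10219). By limma's unadjusted p under 0.05 the counts were 4, 2, 0, 1 and 0 collagens in that order. Over all genes tested they were 1738, 1210, 752, 307 and 470. The median collagen difference, trained minus untrained, was -3.33 points for mH2A1 at 30 min, where it was -6.11 over all genes, and -8.46 points for mH2A2, where it was -6.61. Leaving out either trained mH2A2 replicate at 30 min leaves a lone library in that group. Median collagen cover was 34.2% in trained replicate 1 and 11.35% in trained replicate 2, against 37.6 to 47.3% in untrained mice. Over all autosomal genes the median was 7.95% and 0%, against 3.05 to 16.8%. Col2a1 was covered by mH2A1 at 79.1 and 87.6% in trained and 95.9, 100 and 100% in untrained mice at 30 min (adjusted p = 0.313), and Col15a1 at 55.2 and 41.5% against 73.5, 85.2 and 94.5% (adjusted p = 0.325). Neither overlapped, and neither survived the correction.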

How the data were processed

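RNA and macroH2A ChIP libraries of mouse CA1 were used, 26 RNA libraries with counts per gene and 30 ChIP libraries with domain lists. For RNA, the authors trimmed reads, aligned them to mm10 with STAR and deposited raw counts per gene from featureCounts, over whole transcripts in the ribosome-depleted training experiment. For ChIP, the authors called broad domains in each library against input, and the deposited lists give each domain's log2 fold change over input and its p-value and FDR, all below 0.05. ChIP read depth was not used here, since the lists do not hold it.

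Groups were taken from the labels. Counts were tested with edgeR 4.0.16 (quasi-likelihood, TMM, filterByExpr with a minimum count of 10, fitted within each comparison or experiment) in R 4.3.3, with Benjamini-Hochberg adjustment over all genes and thresholds of 0.01 (depletion, mice without virus) or 0.05 (training). Cover of gene bodies (GENCODE M21) was tested with limma 3.58.1 on the arcsine square root at 0.05, over genes covered in at least 1 library. Both mH2A antibodies at 30 min were used on the same mice, so the mouse was a block in that comparison. Python 3.11.15 and pandas 2.3.3 did the rest, and the scripts were tested on simulated data. DESeq2 1.42.0, other scaling, no filter, a fold threshold, a replicate block and leaving out each replicate were alternatives. Members of the collagen family and all gene lists were chosen with earlier results of these data known. Named outside the family were the targeted genes and, per list, up to 4 genes with the smallest adjusted p for shH2afy against shScr. Same-numbered mice deviated together under shScr in the training comparison alone (correlations 0.17, 0.19 and 0.26).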

Additional observations from a re-analysis of the deposited data

Results flagged for a closer look

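Single libraries stood far from the rest of their group of 5 for cover by mH2A1 at 6 h in 10 of 75 tests. Chance flags about 1 in 20 of untied values. Cover cannot exceed 100%, and libraries tied at or near that ceiling raise a flag for small gaps. The 10 flags can therefore not be set against that rate. In trained mice the lowest library was at 88% for Col2a1 (others 96.6 to 100%), 99.7% for Col5a3 (others 100%) and 98.9% for Col13a1 (others 99.8 to 100%). The highest was at 93.3% for Col6a5 (others 84.7 to 87.2%) and 100% for Col27a1 (others 97.5 to 98.2%). In untrained mice the lowest was at 88% for Col2a1 (others 96.6 to 100%), 99% for Col5a3 (others 100%) and 97.4% for Col7a1 (others 100%). The highest was at 10.8% for Col19a1 (others 4.3 to 5.96%) and 17.1% for Col28a1 (others 7.29 to 8.21%).

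Trained minus untrained mH2A1 cover had opposite directions at 30 min and 1 h, with no overlap at either time, for 3 members. Col2a1 changed by -15.3 points at 30 min and 12.5 points at 1 h, Col11a2 by -18.6 and 42.8 points, and Col27a1 by -1.27 and 3.88 points. Col27a1 was separated at 30 min only by 93.884% in the highest trained library against 93.891% in the lowest untrained library. The share of all genes with such a pattern was not counted, so the 3 members have no background beside them. The difference between times was not tested, and antibody and time cannot be told apart.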

How the results depend on the processing

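Single-gene values were recomputed only for shH2afy against shScr, in the depletion experiment and in all training mice, and kept their direction in each alternative, with 744 values on the same side of the threshold, 15 newly past it, 37 no longer past it and 0 reversed. Leaving out 1 replicate gave 10 (without shScr replicate 3) to 20 collagens for shH2afy against shScr, and 0 (without shH2afy replicate 1) to 18 against shH2afy2. The share of all genes called is not given beside these RNA counts. For trained against untrained cover the range was 0 to 2 for mH2A1 at 30 min (2 without trained replicate 2), 0 to 6 for mH2A2 at 30 min (6 without trained replicate 1) and 0 to 2 for mH2A1 at 1 h (2 without untrained replicate 1). Each of these highest cover counts came from a fit with a lone library left in a group, which was assumed to vary like the others. The share of all genes called in those fits is not given, so the counts have no background beside them. DESeq2 called 2 collagens for training under shScr.

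Gene counts moved by more than 1.5 times for shH2afy against shScr, from 2759 to 4382 with DESeq2, 4339 without a filter and 1194 with the replicate block, and for shH2afy against shH2afy2, from 2699 to 4661 with DESeq2, 4859 without a filter and 1557 with a fold threshold. They moved for shH2afy2 against shScr from 0 to 479 with DESeq2 and 726 without a filter, for training from 0 to 251 under shScr and 47 under the label shH2afy with DESeq2, and in mice without virus from 15 to 461 with DESeq2, 51 without a filter and 0 with the block. For cover after training, genes fell from 179 to 58 near the start, 47 after centring on the library median and 0 with the block (mH2A1 at 30 min), from 96 to 0 after centring and 0 with the block (mH2A2 at 30 min), and from 17 and 4 to 0 near the start, after centring and with the block (mH2A1 and mH2A2 at 1 h), and 2 were called near the start at 6 h. Without the mouse block, 42 genes differed between antibodies. With the replicate number as a block, 13 collagens were called for shH2afy against shScr, 23 against shH2afy2, 27 and 25 in untrained and trained mice and 30 in all training mice. Among these, the count over all genes with the block is given here for shH2afy against shScr of the depletion experiment alone (1194). The other collagen counts have no background beside them. The block left 0 collagens in the other RNA and cover comparisons. Between antibodies, dropping the mouse block also gave 0 collagens.

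Median collagen cover in untrained mice was 52.3% (mH2A1) and 41.1% (mH2A2) at 30 min, 71% and 50.9% at 1 h and 83.7% at 6 h. Within 2 kb of the start it was 78.4% (mH2A1) and 50.9% (mH2A2) at 30 min, 50.1% and 35.7% at 1 h and 77.9% at 6 h. It was 32.6% for mH2A2 at 30 min with domains at FDR under 0.01. The cause was not tested.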
